A study of Rattus norvegicus with 8 samples.

Results

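Somatic RNA of cultured rat sensory neurons was compared between a knockdown of Pum2 and a control hairpin. The comparison used 4 of the 8 libraries of the series, 2 labelled soma shPum2 and 2 labelled soma shControl. The other 4 libraries hold axonal RNA and entered no main comparison. Dorsal root ganglion neurons were taken from rat embryos at embryonic day 15 and grown for 7 days in microfluidic chambers, devices whose narrow grooves let axons, but not cell bodies, reach a separate chamber. On the day of plating they received a lentivirus, which carried a short hairpin RNA against Pum2 (shPum2) in one group and a control hairpin (shControl) in the other, per the labels. No other allele or agent distinguished the groups in the labels. The source label of the somatic RNA names both cell bodies and axons. The labels do not say whether the 2 libraries of a group came from separate cultures or animals, so p-values measure only the spread between these libraries. They name 1 hairpin label for the knockdown, so an effect of the hairpin apart from Pum2 cannot be told apart from an effect of Pum2.

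Pum2 is a Pumilio protein, an RNA-binding protein that recognises a short motif in the 3′ untranslated region of mRNAs. Pumilio proteins bring the deadenylase complex CCR4-NOT to the mRNAs they bind, which shortens the poly(A) tail and lowers translation or stability. In neurons Pum2 is known for roles in RNA granules, translation and excitability. Sensory neurons of the dorsal root ganglion carry touch, position, temperature and pain signals, and many of the pain-sensing ones release the peptides substance P and CGRP.

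The somatic libraries held between 16725902 and 25821800 estimated counts, and 14038 to 14263 genes had at least 1 count. Of 17379 genes, 12346 passed the expression filter and were tested. Values are given as CPM, counts scaled to a common library size after TMM normalisation, unless TPM, a share of transcripts corrected for length, is named. In the order shControl 1, shControl 2, shPum2 1 and shPum2 2, the 18 neuronal markers found (Prph, Nefm and Uchl1 the highest in TPM) summed to 40716, 42026, 34433 and 42053 CPM. The 17 detected fibroblast markers, of which the collagen gene Col3a1, the matrix gene Sparc and Thy1 were highest in TPM, summed to 4409, 2519, 10454 and 2525 CPM, and Tcf21 was at 0 in all 4 libraries. The library shPum2 1 therefore held 4.14 times the fibroblast sum of shPum2 2 and 0.819 times its neuronal sum. In it 16 of the 17 fibroblast markers were highest, Thy1 being the exception. Thy1 is also made by the neurons, and without it the fibroblast sums were 4220, 2289, 10315 and 2278 CPM. The sum of shPum2 1 was then 4.53 times that of shPum2 2.

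Summed markers of other non-neuronal cells were mostly in the same order of libraries. Markers of macrophages and leukocytes, with the complement genes C1qc, C1qa and C1qb highest in TPM, summed to 179.9, 117.9, 400.0 and 101.2 CPM. For endothelium and pericytes (Tagln, Pdgfrb and Acta2 highest in TPM) the sums were 227.7, 114.4, 412.3 and 122.5 CPM. In all of these lists shPum2 1 was highest and shControl 1 second, while shControl 2 and shPum2 2 were close to each other. Schwann cell and satellite glia markers summed to 2624, 2225, 3014 and 2235 CPM, but Ngfr and Gfra3 of that list are also made by the neurons, and without them the sums were 946.5, 584.3, 1703 and 564.4 CPM. Meningeal and perineurial markers (Ptgds, Cdkn1c and Aldh1a2 highest in TPM, Lypd2 at 0) summed to 250.5, 100.4, 357.5 and 79.95 CPM, although Ptgds by itself was highest in shControl 1, at 47.27, 4.601, 11.48 and 1.228 CPM. Skeletal muscle markers, with Myf5 at 0, lay between 25.52 and 28.7 CPM, and red blood cell markers between 9.623 and 29.81 CPM. In bulk RNA of this kind, fewer cells of a type and less RNA per cell cannot be told apart.

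**Figure D1:**
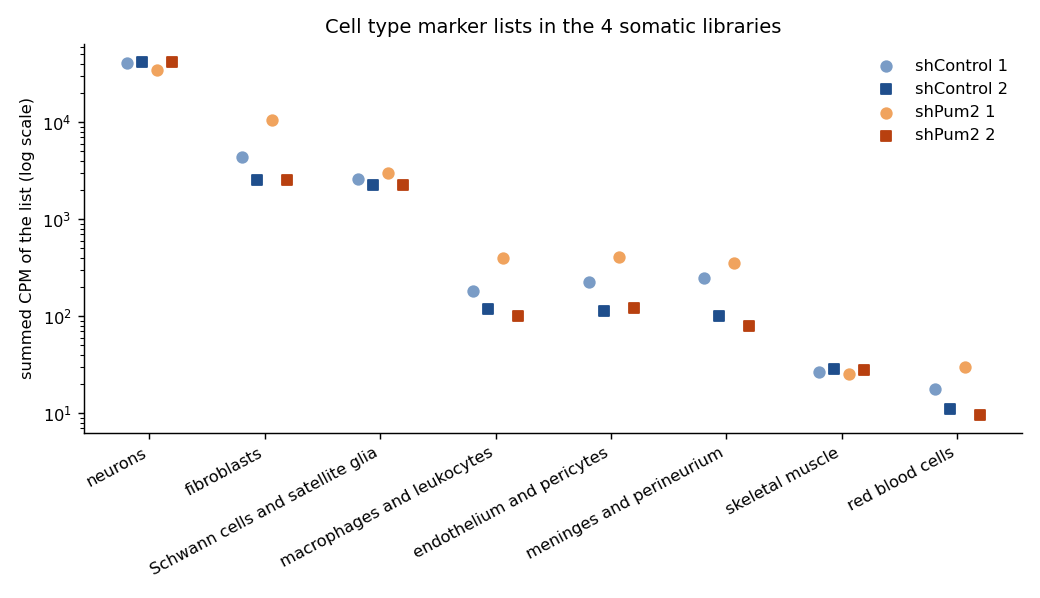
Summed CPM (log axis) of each marker list in the 4 somatic libraries, 1 point per library. The fibroblast, macrophage and endothelial sums are highest in shPum2 1, whereas the libraries numbered 2 nearly coincide in both neurons and fibroblasts.

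Pum2 itself was at 162.9 and 162.0 CPM in the shControl libraries and at 37.09 and 37.34 CPM in the shPum2 libraries. The groups lay far apart, and the 2 libraries within each were nearly equal. The fall was 4.36-fold, from 162.5 ± 0.647 to 37.2 ± 0.182 CPM (SD, n = 2), a log2 change of -2.13 (SE 0.07), which passed in edgeR's quasi-likelihood test at a Benjamini-Hochberg adjusted p of 0.0247. It was the single gene past the threshold of 0.05, so 0.0081% of the tested genes were called lower and 0% higher. At an unadjusted p below 0.05 the same edgeR test had 74 genes (0.6% of those tested). At a Benjamini-Hochberg adjusted p below 0.05, DESeq2 called 2 genes lower (Pum2 and Tac1, 0.0133% of its 14992 genes) and 0% higher. Limma voom called 0 at the same adjusted threshold. The Pum2 call was lost without either shControl library, although its log2 change then stayed at -2.12 and -2.13. Without shPum2 1, the library with the high fibroblast sum, it was -2.12 and remained past the threshold.

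Pum3, a more distant member of the Pumilio family that acts in ribosome assembly, was at 62.99, 61.04, 62.01 and 64.43 CPM, and its groups overlapped. On the length-corrected scale Pum2 was at 46.6 and 44.6 TPM in the controls and 10.8 and 10.2 TPM under shPum2. For a gene of 1 transcript TPM rescales the same counts, so these values are no separate support. Pum2 and Pum3 are each represented by 1 transcript in the files, so these values do not separate isoforms.

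A comparison of 2 libraries against 2 cannot go below p = 0.333 in an exact two-sided permutation test of a gene, so single libraries were also set side by side. The labels number the libraries of each group 1 and 2, without saying that a number marks a shared culture. Between shPum2 2 and shControl 2, whose marker sums were alike, the log2 differences of 7469 genes with a mean log2 CPM of at least 4 had an SD of 0.127. In that pair 1 gene, Pum2, was at least 2-fold lower (0.0134%), and 0% were at least 2-fold higher. Between shPum2 1 and shControl 1 the SD was 0.248. Pum2 was again the single gene at least 2-fold lower (0.0134%), whereas 91 genes (1.22%) were at least 2-fold higher. Of the 91, 12 were on the cell cycle list or a non-neuronal marker list and 0 on the neuronal one. The share of these lists among the 7469 genes was not computed, so the counts are descriptions. At 1.22% of all genes, few or none of the 18 neuronal markers would be that high in any case.

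Libraries of the same hairpin also differed from each other. Of the 7469 genes, 63 (0.843%) were at least 2-fold higher and 5 (0.0669%) lower in shControl 1 than in shControl 2, and the SD of the log2 difference was 0.225. In shPum2 1 against shPum2 2, 216 genes (2.89%) were at least 2-fold higher and 3 (0.0402%) lower, with an SD of 0.395. The spread between the shControl libraries thus lay between those of the 2 numbered pairs, and the spread between the shPum2 libraries above both. Of the 7469 genes, 53.4% had the same sign in both numbered pairs. In both pairs 27 of the 7469 genes were at least 25% higher under shPum2. Likewise 11 of the 7469, Pum2 among them, were at least 25% higher in the controls. The groups did not overlap for 10 of the 27 and for 10 of the 11. Over all genes tested the shares were 11.1% higher and 12.6% lower. The 27 and the 11 were picked by differences between these same libraries, which favours a lack of overlap, so the counts are descriptions.

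**Figure D2:**
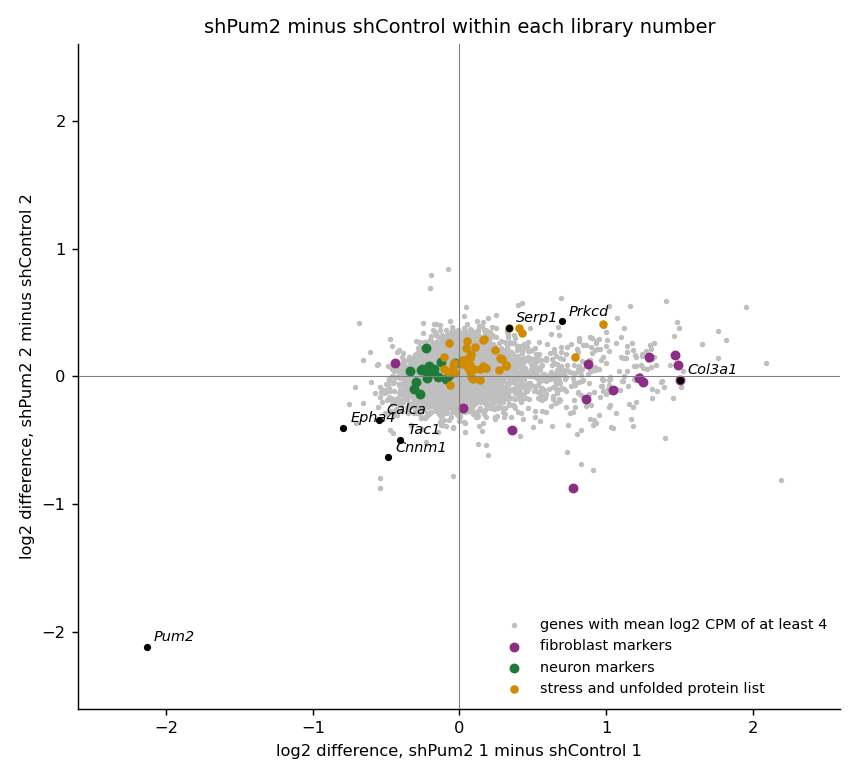
Each point is a gene with a mean log2 CPM of at least 4, placed by its log2 difference between shPum2 1 and shControl 1 (x axis) and between shPum2 2 and shControl 2 (y axis). Pum2 stands alone near -2.1 on both axes, and the spread along the x axis (SD 0.248) is wider than along the y axis (SD 0.127).

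Genes were then ranked by the gap between the nearest libraries of the 2 groups, which favours genes whose libraries of 1 hairpin lie close together. Only genes whose groups did not overlap entered the ranking, so their lack of overlap is part of the choice. Over all tested genes, both shPum2 libraries lay above both shControl libraries for 1374 genes (11.1%) and below them for 1552 (12.6%). The genes described here thus belong to a large class, and none but Pum2 passed in edgeR's test, the others being at a Benjamini-Hochberg adjusted p of 0.9997. Their values are given as descriptions.

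Below Pum2, the precursors of 3 sensory neuropeptides were among the genes with the widest gap on the lower side. Tac1, which encodes the precursor of substance P, was at 631.6 and 674.1 CPM in the controls and 477.6 and 477.8 CPM under shPum2. The shPum2 libraries were nearly equal and below both controls, with a log2 difference of -0.45 and an SE of 0.10. Calca, from which calcitonin and CGRP are made, was at 638.5 and 545.0 CPM in the controls and 436.6 and 431.0 CPM under shPum2, again without overlap (log2 difference -0.45, SE 0.12). Adcyap1, the precursor of the peptide PACAP, was at 119.8 and 118.5 CPM in the controls and 97.63 and 97.06 CPM under shPum2. In the numbered pairs Tac1 differed by -0.40 and -0.50 on the log2 scale, Adcyap1 by -0.29 in both and Calca by -0.55 and -0.34, and the part of non-neuronal RNA in these values was not tested. Tac1 passed the threshold with DESeq2 (adjusted p = 0.0035, Benjamini-Hochberg), while its adjusted p in the edgeR alternatives and limma voom ranged from 0.181 to 1. The authors' deposited table is of the same somatic comparison, so it is no independent support. There Tac1 passed, with a log2 change of -0.39 and an adjusted p of 0.00496, beside Pum2 at -1.71. The submitters' processing notes name DESeq2. Tac1 is represented by 4 transcripts and Calca by 3, and the sums do not separate them.

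Other genes on the lower side had different roles. Epha4, an ephrin receptor of axon guidance, was at 121.0 and 91.85 CPM in the controls and 69.87 and 69.50 CPM under shPum2. The controls differed from each other by more than the gap between shControl 2 and the shPum2 libraries. Pcdh17, a protocadherin adhesion molecule, was at 208.4 and 197.9 CPM in the controls and 159.1 and 163.8 CPM under shPum2. Cnnm1, of a family linked to magnesium transport, was at 28.35 and 29.71 against 20.21 and 19.17 CPM. Its groups were separated in both numbered pairs by similar amounts, -0.49 and -0.63 on the log2 scale. Sytl3, a synaptotagmin-like protein of vesicle traffic, was at 75.80 and 69.76 against 55.51 and 56.55 CPM. Afap1l1, an actin-filament associated protein, was at 27.87 and 29.93 against 20.35 and 21.94 CPM. Ubr7, a ubiquitin ligase component, was at 44.07 and 38.08 against 30.18 and 21.86 CPM, and its 2 shPum2 libraries were as far apart as shControl 2 was from shPum2 1.

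On the higher side the widest gaps belonged to genes of several roles. Prkcd, protein kinase C delta, was at 121.5 and 147.1 CPM in the controls and 197.1 and 198.5 CPM under shPum2. Its shPum2 libraries were nearly equal and its controls were not, and the log2 difference was 0.56 (SE 0.12), with 0.70 and 0.43 in the numbered pairs. Serp1, which stabilises membrane proteins during stress of the endoplasmic reticulum, was at 116.4 and 113.9 against 146.9 and 148.4 CPM (log2 difference 0.36, SE 0.07). Sesn2, a sestrin induced by stress and by p53, was at 72.12 and 69.28 against 97.22 and 87.52 CPM. For both genes the groups were separated in each numbered pair by at least 0.33 on the log2 scale. Rras, a small GTPase, was at 19.69 and 19.63 against 30.41 and 24.75 CPM. Sh3bp4, a regulator of endocytosis and growth signalling, was at 12.93 and 14.07 against 24.74 and 17.11 CPM. Both were highest in shPum2 1, the library highest in fibroblast markers, and the part of non-neuronal RNA in their values was not tested.

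The remaining genes on that side were Galnt16, Fam107b, Dglucy, Coq8a and Nek8. Coq8a, which acts in coenzyme Q synthesis, was at 13.88 and 15.86 against 18.70 and 23.64 CPM, so that shPum2 2 was the higher of its 2 knockdown libraries. Galnt16, an enzyme of O-glycosylation, was at 23.78 and 23.49 against 30.96 and 28.95 CPM. Nek8, a kinase of cilia, was at 14.83 and 13.58 against 18.57 and 17.42 CPM. The log2 differences of these 5 genes lay between 0.32 and 0.51.

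**Figure D3:**
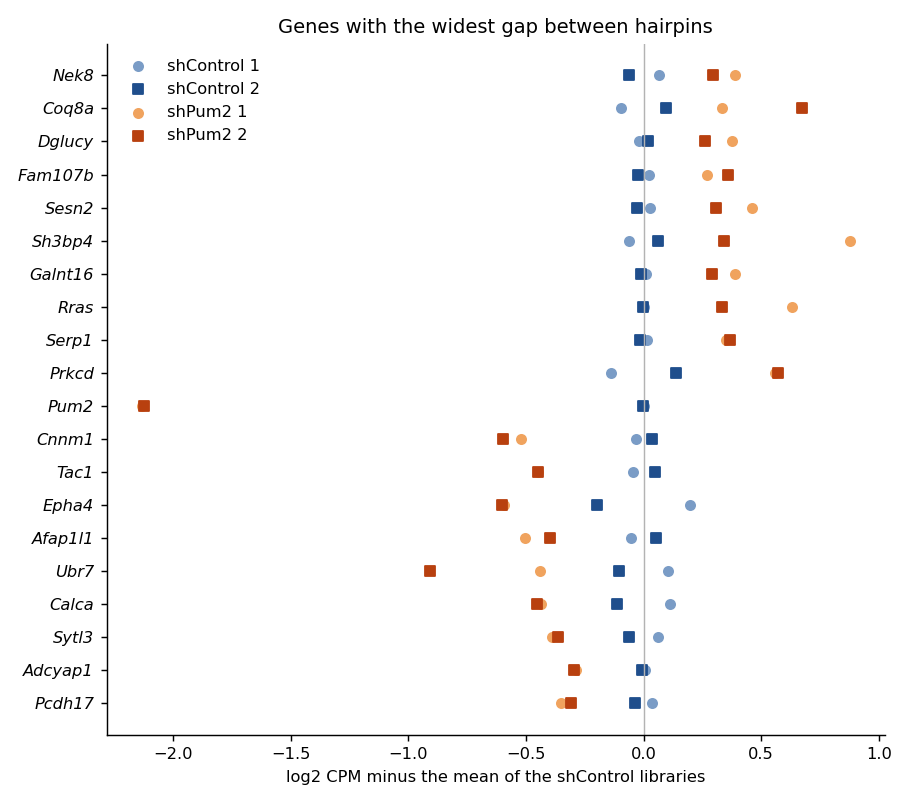
Log2 CPM of each library minus the mean of the shControl libraries (x axis) for Pum2 and the genes with the widest gap between groups in each direction, 1 row per gene and 1 point per library. Apart from Pum2 the group means differ by less than 2-fold for every gene drawn.

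Serp1 and Sesn2 belong to a list of 51 genes of the integrated stress response and the unfolded protein response, of which 49 were tested. These responses slow protein synthesis and raise chaperones of the endoplasmic reticulum and genes of amino acid supply. Of the 49 genes, 45 were higher on average in the shPum2 libraries, against 52.7% of all genes tested, and 0 passed the threshold. Their median log2 difference was 0.12, where that of all genes was 0.01. Both shPum2 libraries lay above both controls for 14 of the 49 (28.6%, against 11.1% of all genes) and below them for 1 (2.0%, against 12.6%). The numbers were alike in both pairs, with 40 of 49 positive and a median of 0.09 for the libraries numbered 1, and 42 of 49 and 0.11 for those numbered 2. With 1 library left out the list was less uniform. Without shPum2 1, 36 of the 49 were positive with a median of 0.16, and without shPum2 2, 30 were positive with a median of 0.07. Without shControl 1, 34 were positive with a median of 0.10, and without shControl 2, 44 with a median of 0.21.

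Promoters of this list hold a known sequence element. The endoplasmic reticulum stress response element is read by the transcription factors ATF6 and NF-Y and consists of CCAAT and, 9 bases further on, CCACG. It was searched on both strands in the 250 bases before the gene start of RefSeq promoters (build GRCr8). It was found in 8 of 43 promoters of the list (18.6%), in 21 of all 27457 promoters (0.0765%) and in 15 of 9487 promoters of genes tested here (0.158%). The 8 genes were Hspa5, Hsp90b1, Calr, Canx, Dnajc3, Xbp1, Derl3 and Creld2, of which 7 were positive. Of all 15 tested genes with the element, these 8 among them, 10 were positive. The list was composed of genes known to respond to this stress, so the share describes the list and is no result of the knockdown. The element is shown in capitals with its surroundings for 3 of them, which were picked after their values were seen because they encode the best-known members: Hspa5 (GRCr8 chr3:38452958-38453006, plus strand), Xbp1 (chr14:84604543-84604591, plus strand) and Hsp90b1 (chr7:23012436-23012484, minus strand). All 3 windows lie upstream of the gene start.
Hspa5: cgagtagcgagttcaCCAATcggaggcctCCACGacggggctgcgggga
Xbp1: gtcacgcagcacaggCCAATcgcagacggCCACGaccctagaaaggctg
Hsp90b1: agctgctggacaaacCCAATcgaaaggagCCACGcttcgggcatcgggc

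Hspa5, which encodes the main chaperone of the endoplasmic reticulum (BiP), was at 410.5 and 425.3 CPM in the controls and 501.5 and 466.6 CPM under shPum2. Xbp1, a transcription factor of the unfolded protein response, was at 106.5 and 106.3 against 119.7 and 130.3 CPM. Hsp90b1, a second chaperone of that compartment, was at 290.2 and 254.7 against 342.7 and 293.7 CPM. In none of the 3 did the groups overlap, although shControl 1 and shPum2 2 were close together for Hsp90b1. Genes of the integrated stress response had values of the same direction. Atf3, a transcription factor also raised by nerve injury, was at 5.634 and 7.625 against 11.93 and 10.18 CPM. Ddit3, which encodes CHOP, was at 34.70 and 38.43 against 42.12 and 42.41 CPM. The median log2 difference was 0.19 for the 8 genes with the element and 0.11 for the other genes of the list with a promoter in the table. Over all 15 tested genes with the element, in the list or not, it was 0.07. A link between the element and these values was not tested. Derl3, the single member whose shPum2 libraries both lay below the controls, was at 3.203 and 3.593 against 2.652 and 2.930 CPM.

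**Figure D4:**
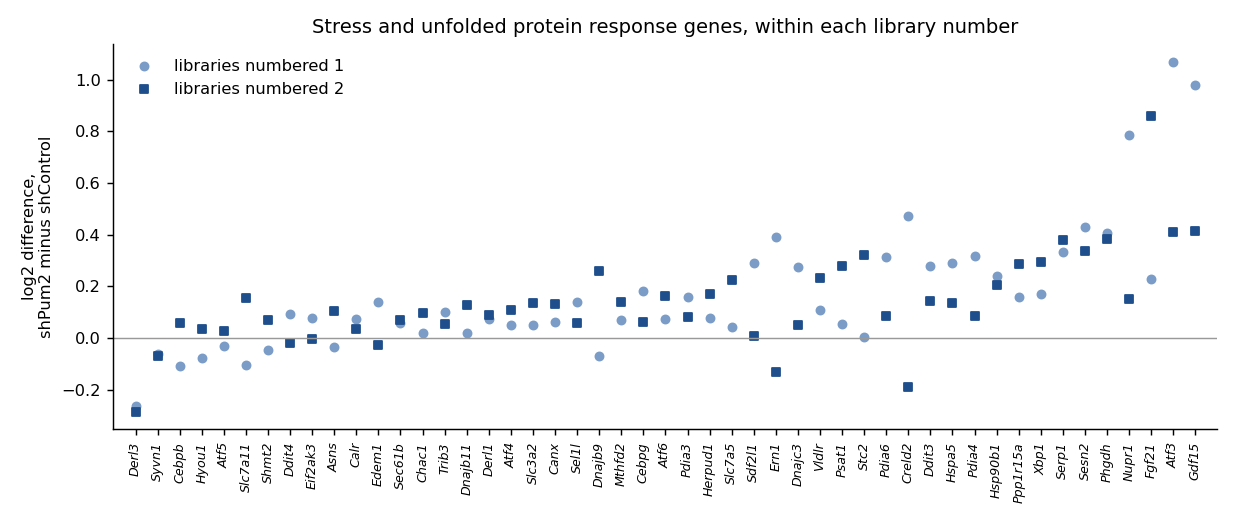
Log2 difference of each tested gene of the stress list (y axis) in the pair numbered 1 and in the pair numbered 2, with the genes along the x axis. Points lie above 0 for 40 of 49 genes in the first pair and for 42 of 49 in the second.

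Lists of genes on which sensory neurons depend leaned to the lower side in the pair numbered 1 and less or not at all in the pair numbered 2. The neuronal marker sum was also lower in shPum2 1 (34433 CPM) than in the other libraries, and its part in these medians was not tested. The 23 tested neuropeptides and their processing enzymes had a median log2 difference of -0.12, and 5 were positive. In the pair numbered 1 the median was -0.26, and in the pair numbered 2 it was -0.06 with 11 of 23 positive. Without shPum2 1 it was -0.06, and without shPum2 2 it was -0.27. Of the 23 genes, 6 lay below both controls without overlap (26.1%, against 12.6% of all genes) and 0 above. Pdyn, the dynorphin precursor, was at 1.542 and 1.490 against 0.640 and 0.356 CPM, a level too low for a firm difference. Cpe, a carboxypeptidase that trims peptide precursors and the most abundant gene of the list, was at 736.7 and 688.7 against 877.0 and 706.5 CPM, and its groups overlapped.

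Voltage-gated sodium and calcium channels carry the action potential and the calcium entry of these neurons. Of 28 tested, 9 were positive, the median log2 difference was -0.16, and 13 (46.4%, against 12.6% of all genes) lay below both controls without overlap and 1 (3.6%, against 11.1%) above. The medians of the numbered pairs were -0.21 and -0.07, and without shControl 1 the median was -0.06. Scn11a, a sodium channel of pain-sensing neurons (Nav1.9), was at 161.3 and 128.2 against 126.3 and 105.1 CPM, with shControl 2 and shPum2 1 close together. Scn10a, the related channel Nav1.8, was at 1147 and 1063 against 953.4 and 967.2 CPM. Scn3b, an accessory subunit, was at 291.3 and 279.3 against 233.7 and 260.4 CPM. Scn8a, which has been described as a Pumilio target, was at 45.19 and 45.66 against 36.90 and 43.48 CPM. All 4 lay lower in both shPum2 libraries, by amounts that did not pass, and they do not stand for the 9 positive members of the list.

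Potassium and HCN channels, which set the resting potential and firing, had a median of -0.07 over 41 tested genes, with 12 positive, 15 (36.6%, against 12.6% of all genes) below both controls and 4 (9.8%, against 11.1%) above. Their median was -0.21 in the pair numbered 1 and 0.04 in the pair numbered 2, so the direction of the list differed between the pairs. With each library left out it ranged from -0.14 without shControl 2 to -0.02 without shControl 1. Kcnc4, a voltage-gated potassium channel, was at 315.8 and 323.8 against 255.7 and 293.7 CPM. It was lowest in shPum2 1, the library with the lowest neuronal sum.

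Channels and receptors of sensory transduction had a median of -0.07 over 24 tested genes, with 11 positive and medians of -0.22 and 0.00 in the numbered pairs. Of the 24 genes, 8 lay below both controls without overlap (33.3%, against 12.6% of all genes) and 3 above (12.5%, against 11.1%). Trpv1, the receptor for heat and capsaicin, was at 18.74 and 20.73 against 15.09 and 16.99 CPM. Asic1, an acid-sensing channel, was at 138.7 and 127.4 against 118.1 and 113.2 CPM. P2rx3, the ATP receptor of pain-sensing neurons, was at 254.3 and 299.3 against 317.1 and 329.0 CPM. Its values lay above the controls while those of Trpv1 and Asic1 lay below, so the members of this list did not share a direction.

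Genes of synaptic vesicles and release had 2 of 36 positive with a median of -0.09. In the pair numbered 1 the median was -0.21, and in the pair numbered 2 it was 0.00 with 18 of 36 positive. Syt4, a synaptotagmin, was at 851.0 and 848.4 against 625.9 and 784.8 CPM, lowest in shPum2 1. Genes of the neuronal cytoskeleton and transport had 4 of 38 positive, with medians of -0.18 and 0.02 in the numbered pairs. Without shPum2 1 these 2 lists had medians of -0.01 and 0.03, and without shPum2 2 of -0.24 and -0.20. Map4, a microtubule-associated protein that is also made outside neurons, was at 555.0 and 526.1 against 597.3 and 631.2 CPM, the reverse of Map2 of dendrites at 209.8 and 208.1 against 168.8 and 199.2 CPM.

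Lists that bear on how Pumilio proteins act lay near the level of all genes. Deadenylation and decapping partners had a median log2 difference of 0.01 over 26 tested genes, with 2 non-overlapping in each direction (7.7%, against 11.1% of all genes higher and 12.6% lower). Edc4, a scaffold of decapping, was at 117.5 and 117.1 against 107.2 and 102.8 CPM. Neuronal and granule RNA-binding proteins had a median of -0.02 over 36 genes, with 16 positive. Of 18 earlier described Pumilio targets, which included Pum2 itself, 8 were positive and the median was -0.02. A list apart from these, the protein kinase C family of Prkcd, had 5 of 11 positive with a median of -0.05.

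Several further lists had medians close to 0. Medians were 0.02 for 18 neurotrophin and GDNF receptors and their ligands, -0.05 for 20 sensory neuron transcription factors, -0.02 for 40 genes of axon guidance and adhesion and -0.01 for 22 genes of nerve injury and regeneration. Medians were 0.00 for 18 heat shock genes, 0.01 for 62 cytosolic ribosomal proteins, -0.01 for 41 translation factors and -0.03 for 53 genes of oxidative phosphorylation. Among the 26 genes of cholesterol synthesis the median was 0.04 and 18 were positive, but the direction differed between libraries. In the pair numbered 1, 9 of 26 were positive with a median of -0.03, and in the pair numbered 2, 20 with a median of 0.10. Without shPum2 1 the median was 0.20 with 23 positive, and without shPum2 2 it was -0.15 with 2 positive.

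Lists known for dividing cells, interferon and immediate early genes had the widest medians, and these differed most between the pairs. All 29 tested cell cycle genes were positive with a median of 0.82, but the median was 1.10 in the pair numbered 1, -0.01 in the pair numbered 2 and -0.47 without shPum2 1. Pcna, a clamp of DNA replication, was at 30.54, 32.38, 50.53 and 32.31 CPM, high in shPum2 1 alone. Interferon and RNA-sensing genes had a median of 0.40 over 35 genes, 0.59 and 0.08 in the numbered pairs and -0.20 without shPum2 1. B2m, of the class I antigen complex, was at 130.5, 106.7, 209.5 and 104.4 CPM. Immediate early genes had a median of 0.31 over 26 genes, 0.47 and 0.01 in the numbered pairs and -0.12 without shPum2 1. These values followed the library with the highest fibroblast and macrophage sums, whose part in them was not tested.

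For the p53 response both pairs leaned to the higher side. Of its 22 tested genes 19 were positive with a median of 0.25, and the medians of the numbered pairs were 0.34 and 0.15. Of the 22 genes, 4 lay above both controls (18.2%, against 11.1% of all genes) and 0 below. Without shPum2 1 the median was -0.01 with 10 of 22 positive, without shPum2 2 it was 0.39 and without shControl 2 it was 0.14. Bax, which promotes apoptosis, was at 69.57 and 69.02 against 89.17 and 74.09 CPM, and Ccng1, cyclin G1, was at 511.7 and 444.5 against 637.8 and 513.1 CPM. For Ccng1 the nearest libraries, shControl 1 and shPum2 2, were nearly equal, and the list shares Sesn2 with the stress list.

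**Figure D5:**
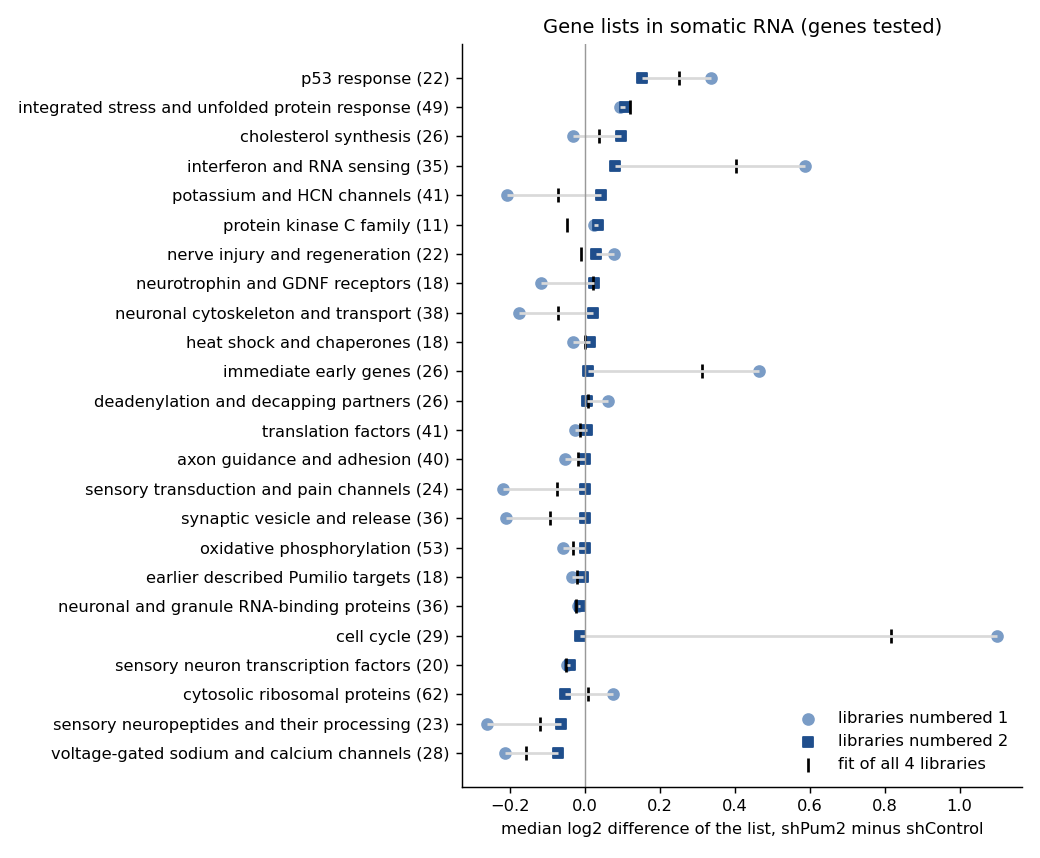
Median log2 difference of shPum2 against shControl for each gene list, over all 4 libraries and in each numbered pair. The stress and p53 lists lie to the right of 0 in both pairs, whereas the cell cycle, interferon and immediate early lists lie far to the right in the pair numbered 1 alone.

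The scale chosen for the libraries set part of these directions. When libraries were scaled to the sum of 21 pan-neuronal genes in place of TMM, the median log2 difference of all genes moved from 0.01 to 0.12, and the share of positive genes from 52.7% to 82.4%. Non-overlapping genes then numbered 2857 higher and 433 lower in place of 1374 and 1552. On the neuronal scale 19 of the 36 synaptic genes were positive (median 0.006), in place of 2. Cytoskeletal genes had 29 of 38 positive (0.033) in place of 4. Potassium and HCN channels had 25 of 41 (0.025) in place of 12. The medians of the sodium and calcium channels (-0.05) and of the neuropeptide list (-0.02) stayed below 0. A scale shifts all genes by nearly the same amount, so places relative to the median of all genes could hardly move. Of the 49 stress genes 44 lay above that median with TMM and 43 with the neuronal scale, of the 36 synaptic genes 1 lay above it with either, and of the 38 cytoskeletal genes 4 and 3 did.

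The authors' deposited table of the somatic comparison lists 17320 genes, of which 2, Pum2 and Tac1, have an adjusted p below 0.05. Of 11090 genes that also have a value here, 98.8% have the same sign. That table describes the same somatic comparison, so the shared signs and the Tac1 call are no independent support. In the authors' deposited table Prkcd is at 0.42, Serp1 at 0.30 and Sesn2 at 0.29 on the log2 scale, each without passing. Calca is at -0.36, Epha4 at -0.39 and Adcyap1 at -0.24 there. The changes in that table were smaller, with a median size of 0.04 on the log2 scale, where the edgeR fit had 0.10 for the same genes. DESeq2 as run here gave -2.12 for Pum2 and -0.45 for Tac1, where that table has -1.71 and -0.39. The sizes are thus not on 1 scale and do not show a smaller effect. The cause was not tested.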

How the data were processed

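RNA-seq of 4 somatic libraries was compared. For each library the authors deposited estimated counts and TPM of 18321 RefSeq transcripts from kallisto, per the file headers. Rnor_6.0 is named as build in the submitters' processing notes, and tool versions are not given in the sources used here. The authors' deposited comparison table, per the file headers, holds per gene a normalised mean (a signal), log2 fold change and standard error, a test score, and p-values. The notes also name DESeq2.

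Transcripts were matched to symbols of GRCr8 RefSeq (17367 of 18321, 94.8%), summed to 17379 genes and rounded. Kallisto divides reads shared by near-identical genes, so values in multigene families are uncertain. Unmatched transcripts, 3.54% to 3.62% of counts, kept their identifiers. edgeR 4.0.16 (R 4.3.3) was run on these counts with TMM, its expression filter, its quasi-likelihood test and Benjamini-Hochberg adjustment over all 12346 genes at 0.05. On simulated counts with 1 common spread and known changes, it recovered 25% of 2-fold and 96% of 4-fold changes at that threshold. Most 2-fold changes were thus missed there, so genes that did not pass are not shown to be unchanged. limma 3.58.1, DESeq2 1.42.0, other size factors, scaling to neuronal genes, no filter, a replicate term, all 8 libraries and each library left out were alternatives. The numbered pairs were added after seeing the data. Overlap was judged on log2 CPM with a prior count of 2.

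Named genes were Pum2, genes past the threshold, per direction the 10 widest gaps among named genes averaging 4 or more in log2 CPM, and per list up to 4 members of smallest p and the 2 most abundant. Some genes that the rule named are not reported here. Genes named outside this rule were chosen after their values were seen. Members and all 25 lists were chosen with earlier results of these data known. Lists were described by counts and medians without a test.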

Additional observations from a re-analysis of the deposited data

How the results depend on the processing

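The Pum2 log2 change lay between -2.13 and -2.12 with each library left out in turn, and the number of genes past the threshold was then 0 to 1. Scaling to the pan-neuronal list gave 0 genes (Pum2 at -2.02, adjusted p = 0.21, edgeR), limma voom 0 (-2.13, adjusted p = 0.0529), the fit of all 8 libraries 0 (-2.14, adjusted p = 1, edgeR) and DESeq2 2, with causes that were not tested. Of 44 further genes named in the text, 41 kept their direction under all alternatives run. Many were named because their groups did not overlap or their p was small, which nearly fixes their direction. The count is thus no test of robustness. Tac1 was the single one of the 44 to pass under any alternative. The neuronal scale gave 2857 non-overlapping genes higher and 433 lower. The numbers of the libraries share no stated source. Same-numbered libraries deviated together across genes (r = 0.67 over 12346 genes), and with the replicate block 1 gene, Pum2 at -2.13, was past the threshold. With each library left out in turn, the log2 difference ranged from -0.002 to 0.056 for Pum3, from -0.015 to 0.30 for Cpe and from -0.19 to 0.82 for B2m. For the marker sums (log2 of the mean under shPum2 over that of the controls) the ranges were -0.27 to 0.024 for neurons, -0.46 to 1.59 for fibroblasts, -0.56 to 1.43 for macrophages and leukocytes, -0.48 to 1.27 for endothelium and pericytes, -1.134 to 1.12 for meninges and perineurium and -0.57 to 1.06 for red blood cells. The low ends of the non-neuronal ranges, and the high end for neurons, came without shPum2 1. With 2 libraries a group, leaving 1 out leaves a lone library that is assumed to vary like the other group. Pdyn and Derl3 rest on few counts, so depth limits what their values show.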
